A study of Homo sapiens with 6 samples.

Results

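The genes described here encode DNA-binding subunits of NF-kappaB (*RELA*, *RELB*, *NFKB1* and *NFKB2*) and inhibitors that hold many NF-kappaB dimers in the cytoplasm (*NFKBIA*, *NFKBIB* and *NFKBIE*). Every probeset that the platform annotation assigns to 1 of these 7 genes alone was taken. This gave 8 of the 16569 probesets and covered 6 of the 7 genes, among 9584 named genes in all. The expression of *NFKB2* is not analysed here. Gene expression was measured on 6 Affymetrix arrays in HEK293T, a human line derived from embryonic kidney that holds the SV40 large T antigen and makes USF1 protein of its own. The 3 USF1 arrays came from cells transiently transfected with a plasmid that carries the *USF1* coding region and adds a histidine tag, and the 3 Empty vector arrays came from cells transfected with the same kind of plasmid without *USF1*. RNA was taken 48 hours after transfection in both groups, so both groups share the transfection, the plasmid backbone and the cell line. *USF1* encodes a basic helix-loop-helix factor that binds E-boxes, and the question put to the arrays was which genes respond, directly or through others, when it is over-expressed.

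NF-kappaB proteins share a Rel homology domain and bind DNA as dimers. In resting cells the inhibitors, called IkappaB proteins, mask the nuclear localization signal of the dimers. Signals from cytokine receptors activate the IKK kinases, which phosphorylate the inhibitors and mark them for ubiquitination and breakdown by the proteasome, and the freed dimers enter the nucleus. The dimers of RELA with the product of *NFKB1* mediate this canonical pathway, while RELB pairs mainly with the product of *NFKB2* in the slower noncanonical pathway. Genes of the inhibitors and of several subunits are themselves targets of NF-kappaB, and this feedback is a known feature of the pathway.

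The promoters of several of these genes hold matches to the kappaB consensus, the sequence that NF-kappaB dimers are known to bind. RefSeq promoter windows of 300 bases (250 before and 50 after a transcription start, GRCh38.p14) were at hand for 5 of the 7 genes, 10 windows in all, and those of *RELB* and *NFKBIE* were not searched here. This consensus, searched on both strands, had a match in 5 of the 10 windows, which belong to *NFKB1*, *NFKB2*, *NFKBIA* and *NFKBIB*, where 11.3% of all 35116 windows have one. The following stretches of 30 bases are shown because they place this element in the promoters of 1 measured subunit and 2 measured inhibitors, with the match in capitals and each stretch read on the strand of its gene.
*NFKB1* (chr4:102501300-102501329, plus strand): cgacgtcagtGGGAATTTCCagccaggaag
*NFKBIA* (chr14:35404811-35404840, minus strand, match on the opposite strand): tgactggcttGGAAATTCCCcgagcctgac
*NFKBIB* (chr19:38899931-38899960, plus strand): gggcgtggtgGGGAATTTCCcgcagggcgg
The same *NFKBIB* window holds 3 matches, of which 1 on the opposite strand overlaps the one shown, shifted by 1 base. The E-box CACGTG, the form that USF proteins are known to bind, was not in any of the 10 windows and was in 7.26% of all windows. The looser CANNTG, which includes CACGTG, was in 4 of the 10 windows and in 68.7% of all. These matches describe letters in the windows and were not tested as binding sites.

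The deposited RMA values are in log2 units, in which a difference of 1 is a doubling. The arrays were much alike in level, with array medians between 5.883 and 6.004, but Empty vector replicate 1 stood apart from both other arrays of its group (SD of the differences 0.336 in each case, against 0.149 to 0.222 among the USF1 arrays). The actin control probesets gave a 5' minus 3' value, which falls as RNA is degraded, of -1.34 in Empty vector replicate 1 and -1.04 in Empty vector replicate 2, against -0.681 to -0.493 on the other 4 arrays. By the same measure, the GAPDH control probesets set only Empty vector replicate 1 apart, at -0.582. Empty vector replicate 2, at -0.316, lay among the remaining arrays, which spanned -0.345 to -0.256. The low value of Empty vector replicate 2 was thus seen with actin and not with GAPDH. Both low actin values were on Empty vector arrays, so the actin value and the group cannot be fully told apart. Among probesets annotated to 1 gene alone, 5 of 11 listed markers of epithelium and embryonic kidney had a probeset. The same held for 5 of 7 listed neuronal and adrenal markers, which HEK293 cells are known to express. It held for 0 of 32 listed markers of leukocytes, fibroblasts, endothelium, hepatocytes, adipocytes and erythrocytes. Probesets annotated to several genes were left out of these counts, so a marker that was not counted may still be on the arrays. The single *USF1* probeset had a log2 difference of -0.071 (SE 0.19, limma adjusted p-value = 0.836). It cannot check the plasmid because no source used here says where in the transcript its probes lie. The paper checked the over-expression at the protein level by western blot.

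*RELB* was the only gene of the 6 that passed limma after Benjamini-Hochberg adjustment, and it was higher in cells that over-expressed *USF1*. Its log2 values were 4.60, 4.57 and 4.53 on the Empty vector arrays and 5.01, 4.98 and 5.06 on the USF1 arrays. All 3 USF1 arrays lay above all 3 Empty vector arrays, with a gap of 0.386 between the groups against ranges of 0.0717 and 0.0705 within them. The mean rose from 4.57 ± 0.04 (SD, n = 3 arrays) to 5.02 ± 0.04 (SD, n = 3), a log2 difference of 0.45 (SE 0.08, 95% interval 0.27 to 0.63, limma adjusted p-value = 0.0132), which is 1.37-fold. RELB is the subunit that marks the noncanonical pathway. Of all probesets, 3.97% had a greater difference than *RELB*, and 4.32% were called higher at an adjusted p-value under 0.05, so that 1 of 8 NF-kappaB probesets stands against a background of that size. A change in RNA per cell and a change in the number of cells that hold the RNA cannot be told apart in RNA from a whole culture.

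The rise of *RELB* stayed between 0.43 and 0.52 under each setting on the log2 scale in which it was fitted, but its call did not hold in all of them. Leaving out each array in turn gave differences between 0.43 and 0.47, and the call was lost without USF1 replicate 1 (adjusted p-value = 0.0624), without USF1 replicate 3 (0.068) and without Empty vector replicate 2 (0.0516, all from limma). Over all probesets these fits called 466, 369 and 574, against 1974 with all arrays. Without both Empty vector arrays of low actin value, the difference was 0.49 (SE 0.12, limma adjusted p-value = 0.0969, with the lone Empty vector array assumed to vary like the USF1 arrays), and with the actin value as a covariate 0.48 (SE 0.11, limma adjusted p-value = 0.0629).

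**Figure D1:**
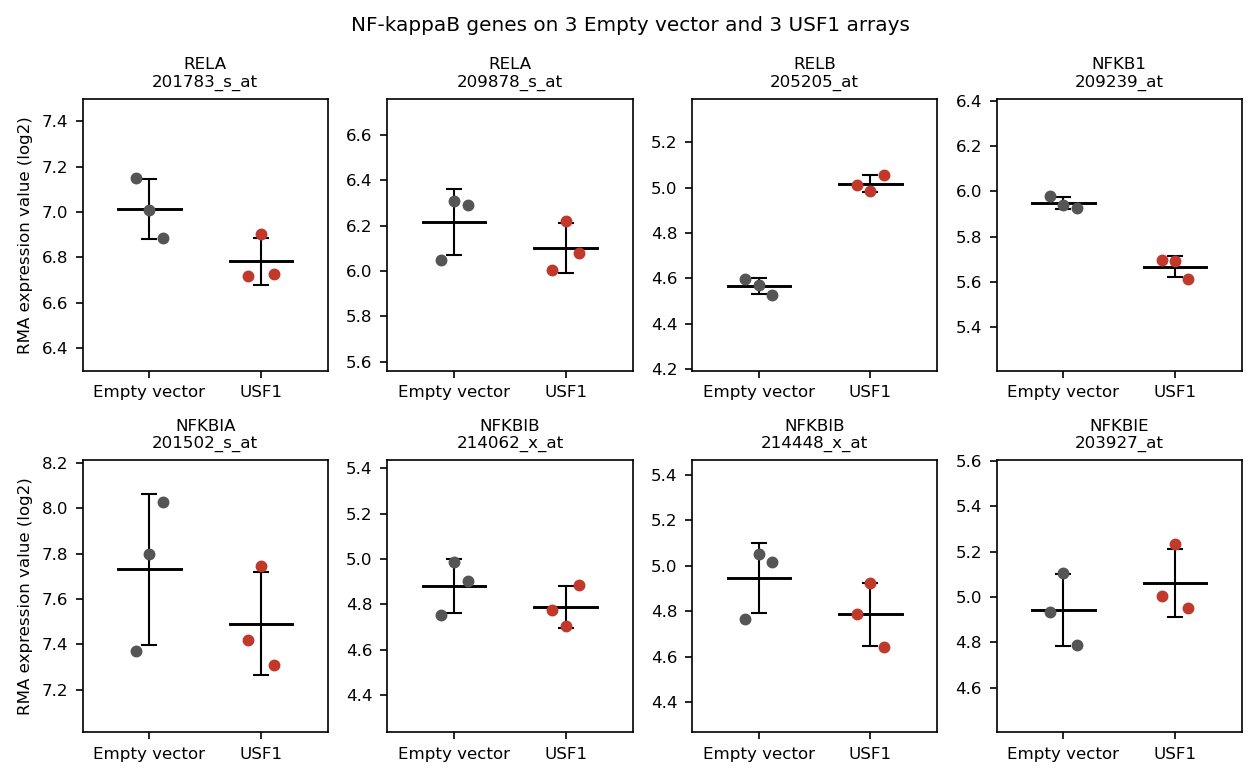
RMA expression values (log2, vertical axis, each panel spanning the same width on the log2 scale) of the 8 NF-kappaB probesets, with grey points for Empty vector arrays, red points for USF1 arrays, a long bar for the mean and an error bar for the SD of 3 arrays. The groups lie apart for *RELB*, which is higher in USF1 cells, and for *NFKB1*, which is lower, and they overlap in the other 6 panels.

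*NFKB1*, which encodes the precursor of the partner of RELA in canonical dimers, lay just beyond the threshold on the other side. Its values were 5.98, 5.94 and 5.93 on the Empty vector arrays and 5.69, 5.69 and 5.61 on the USF1 arrays. The groups did not overlap, with a gap of 0.233, as was the case for 2 of the 8 NF-kappaB probesets and for 36.1% of all probesets. The means were 5.95 ± 0.03 (SD, n = 3) and 5.67 ± 0.05 (SD, n = 3), a log2 difference of -0.28 (SE 0.08, 95% interval -0.46 to -0.10, limma adjusted p-value = 0.0545). The unadjusted p-value was 0.00706 from limma, and 31.3% of all probesets had one under 0.05. The difference passed with array weights (adjusted p-value = 0.032), with a replicate block (0.0482) and without the 25% of probesets of lowest mean (0.0426, all from limma). It also passed on the linear scale (limma adjusted p-value = 0.0434). It did not pass when each array was centred on its median (-0.21, adjusted p-value = 0.0978) or after a further quantile normalization (-0.22, 0.0856, both from limma). Nor did it pass with a trended prior (adjusted p-value = 0.0629) or with the actin value as a covariate (-0.25, 0.246, both from limma). Without both Empty vector arrays of low actin value it was -0.26. Without single arrays it ranged from -0.30 to -0.26, with adjusted p-values between 0.0696 and 0.192 from limma.

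*RELA*, the main activating subunit of the canonical pathway, had 2 probesets, and neither passed. At 201783_s_at the Empty vector arrays had 7.15, 7.01 and 6.89 and the USF1 arrays 6.72, 6.90 and 6.73. The highest USF1 array reached above the lowest Empty vector array, and the difference was -0.23 (SE 0.10, 95% interval -0.46 to 0.00011, limma adjusted p-value = 0.16). At 209878_s_at the Empty vector arrays had 6.05, 6.31 and 6.29 and the USF1 arrays 6.004, 6.22 and 6.08, with a difference of -0.12 (SE 0.11, 95% interval -0.36 to 0.12, limma adjusted p-value = 0.487). The order of the Empty vector arrays was not that of the first probeset, as replicate 1 was the highest at 201783_s_at and the lowest at 209878_s_at. At 201783_s_at the difference was -0.093 with the actin value as a covariate and -0.10 without both Empty vector arrays of low actin value. At 209878_s_at it was -0.19 in both of these fits, -0.048 with arrays centred on their medians, and between -0.20 (without Empty vector replicate 1) and -0.068 (without USF1 replicate 1) when single arrays were left out. With the mean of both probesets in place of each, the *RELA* difference was -0.17 (SE 0.09, limma adjusted p-value = 0.179).

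The inhibitors had 4 probesets, none of which passed limma (0 also at an unadjusted p-value under 0.05 and 0 by the methods' t-test after Benjamini-Hochberg adjustment). *NFKBIA* encodes IkappaB alpha, the inhibitor known to be resynthesized fastest after NF-kappaB is activated. It varied most among the arrays of a group, with 7.37, 7.80 and 8.03 on the Empty vector arrays and 7.42, 7.74 and 7.31 on the USF1 arrays. This spread came from a pair of arrays, as Empty vector replicate 1, with the low actin value, lay at the level of the lower USF1 arrays and USF1 replicate 2 near the middle Empty vector array. The difference was -0.24 (SE 0.18, 95% interval -0.64 to 0.16, limma adjusted p-value = 0.389), and it was -0.42 without Empty vector replicate 1 (limma adjusted p-value = 0.0734), -0.092 without Empty vector replicate 3 and -0.54 without both Empty vector arrays of low actin value (limma adjusted p-value = 0.175). Leaving out USF1 replicate 2 gave -0.37 and leaving out USF1 replicate 3 gave -0.15, and the fit with the actin covariate gave -0.48. The part of RNA quality in these values was not tested beyond these fits.

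*NFKBIB* encodes IkappaB beta, a slower responding inhibitor, and its probesets carry the suffix x_at, which marks probes that may also bind related transcripts. At 214062_x_at the values were 4.75, 4.99 and 4.90 for Empty vector and 4.78, 4.70 and 4.89 for USF1. At 214448_x_at they were 4.77, 5.05 and 5.02 for Empty vector and 4.79, 4.92 and 4.64 for USF1. The groups overlapped at both, with differences of -0.09 (SE 0.10, 95% interval -0.32 to 0.13) and -0.16 (SE 0.11, 95% interval -0.42 to 0.10). Their limma adjusted p-values were 0.546 and 0.37. Without single arrays the first ranged from -0.16 (without Empty vector replicate 1) to -0.041 (without Empty vector replicate 2) and the second from -0.25 (without Empty vector replicate 1) to -0.089 (without USF1 replicate 3), and with arrays centred on their medians they were -0.025 and -0.091. *NFKBIE*, which encodes IkappaB epsilon, had 4.93, 5.10 and 4.79 on the Empty vector arrays and 5.003, 5.23 and 4.95 on the USF1 arrays. Its difference of 0.12 (SE 0.12, 95% interval -0.14 to 0.38, limma adjusted p-value = 0.51) was positive like that of *RELB*, and the groups overlapped. Leaving out USF1 replicate 2 brought this difference to 0.035, leaving out Empty vector replicate 3 to 0.044 and leaving out Empty vector replicate 2 to 0.20. It reached 0.27 when both Empty vector arrays of low actin value were dropped, and it passed in none of these fits.

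**Figure D2:**
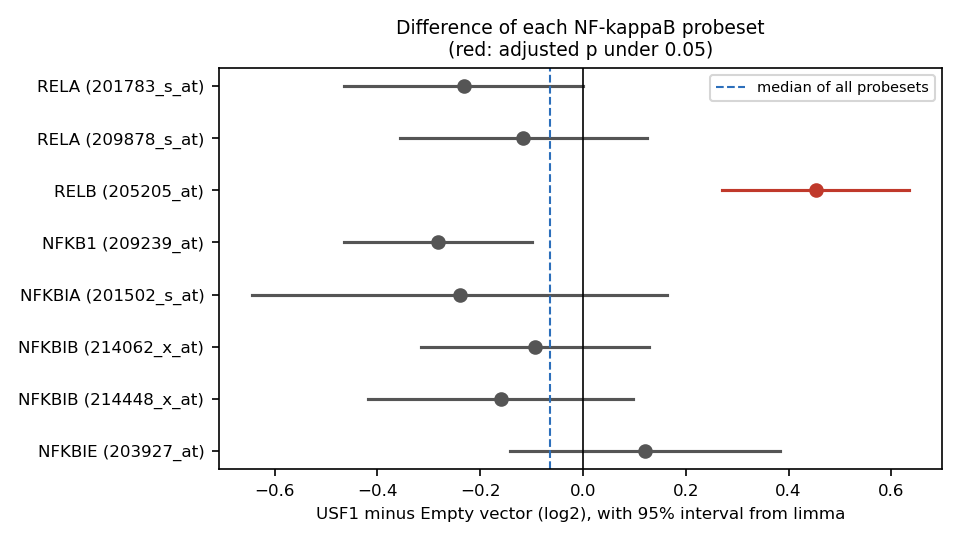
Difference, USF1 minus Empty vector in log2 units (horizontal axis), with its 95% interval from limma (bar) for each NF-kappaB probeset (vertical axis), in red where the adjusted p-value is under 0.05, with the median of all probesets as a dashed line. The interval of *RELB* lies right of 0 at 0.27 to 0.63, that of *NFKB1* left of 0 at -0.46 to -0.10, and the others include 0.

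Over the family, 6 of the 8 probesets had a negative difference, where 60.8% of all probesets did, and the median difference was -0.14 against -0.065 over all probesets. The sign of each of the 8 differences was the same under every alternative run. At an adjusted p-value under 0.05, 1 of the 8 probesets was called, where 11.9% of all probesets were (7.60% lower). Higher values made up 36.2% of the calls over all probesets, against 56.1% with arrays centred on their medians and 50.4% after a further quantile normalization. That *RELB* passed and the other genes did not does not by itself show that they differed, so the log2 ratio of *RELB* to each other NF-kappaB probeset was compared within arrays. The ratio to *NFKB1* was higher in USF1 cells by 0.73 (SE 0.05), that to *RELA* by 0.69 (SE 0.10) at 201783_s_at and by 0.57 (SE 0.13) at 209878_s_at. The ratio to *NFKBIA* was higher by 0.69 (SE 0.26), those to *NFKBIB* by 0.55 (SE 0.09) and 0.61 (SE 0.15), and that to *NFKBIE* by 0.33 (SE 0.13). Each pair had a p-value of 0.1 in an exact permutation test, 2-sided, also after adjustment over the 7 pairs, which is the smallest that 3 arrays against 3 can give. All 7 pairs share *RELB*, which was singled out for its rise, so these values are a description and do not show that the genes differed in their change.

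**Figure D3:**
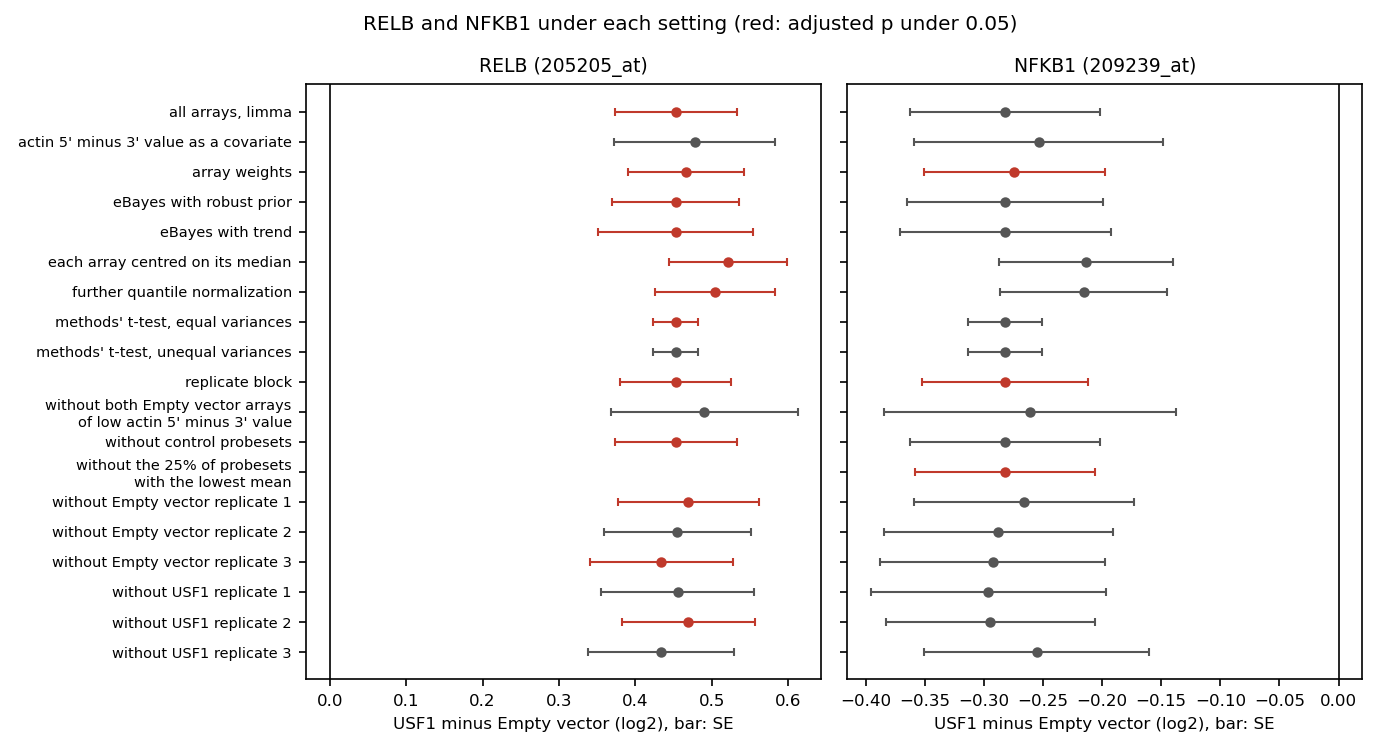
Difference, USF1 minus Empty vector in log2 units (horizontal axis), with its SE (bar) for *RELB* (left) and *NFKB1* (right) under each setting on the log2 scale (vertical axis), in red where the adjusted p-value is under 0.05. *RELB* stays between 0.43 and 0.52 and has no point without the 25% of probesets of lowest mean, which include it, and *NFKB1* stays between -0.30 and -0.21.

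The pattern of *RELB* over the 6 arrays was most like that of genes with far larger rises. The 3 named genes with the highest Pearson correlation were the acylphosphatase *ACYP2* (r = 0.999, n = 6 arrays), *DRC8* (r = 0.999) and the heparan sulfate sulfotransferase *HS3ST3B1* (r = 0.996). They rose by 2.83 (SE 0.14), 2.11 (SE 0.12) and 1.09 (SE 0.10), and each was called without each array in turn. As *RELB* took mainly 2 levels, 1 in each group, any gene with a clear difference between the groups correlates with it, and 290 of 9583 other named genes had r over 0.95.

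The other genes of the pathway were described by 6 lists. These hold 160 genes, of which 101 had a probeset, and each gene was taken at its probeset with the highest mean. Of the 101 genes, 3 rose and 5 fell with a limma adjusted p-value under 0.05, which is 7.92%, where 14.1% of all named genes were called (5.19% higher and 8.89% lower). At an unadjusted p-value under 0.05 there were 32 of 101, where 34.5% of all named genes had one. A gene that was not called is not thereby shown to be unchanged, and the count of each list under other settings is given with the dependence on the processing.

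Of the other Rel and IkappaB family genes, 6 of 9 were measured, and none passed limma, where 14.1% of all named genes did. At an unadjusted p-value under 0.05 there were 2, where 34.5% of all named genes had one. By the methods' t-test 0 passed after Benjamini-Hochberg adjustment. *REL*, which encodes c-Rel, a subunit known best from lymphocytes, had a difference of -0.27 (SE 0.09, limma adjusted p-value = 0.0901), and its other probesets had -0.25 and -0.12. The groups did not overlap for 5 of the 6 genes, where 40.2% of all named genes had groups that did not, and 5 had a negative difference. *NKIRAS1* and *NKIRAS2*, which encode small Ras-like proteins that bind the inhibitors, had differences of 0.23 (SE 0.10) and -0.23 (SE 0.10). The median of the list was -0.20, against -0.079 over all named genes.

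Of the IKK complex and the kinases upstream of it, 14 of 18 genes were measured and none passed limma, where 14.1% of all named genes did. At an unadjusted p-value under 0.05 there were 3, where 34.5% of all named genes had one. By the methods' t-test 0 passed after Benjamini-Hochberg adjustment. The catalytic subunits *CHUK* and *IKBKB* had differences of 0.20 (SE 0.11) and -0.18 (SE 0.11), and the regulatory subunit *IKBKG* had -0.12 (SE 0.11). *TAB2* and *TAB3*, adaptors that bring the kinase TAK1 to ubiquitin chains, had -0.23 (SE 0.08, adjusted p-value = 0.0966) and -0.38 (SE 0.13, adjusted p-value = 0.0925, both from limma). The median was -0.064.

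Of 44 receptors and adaptors, 27 were measured, 1 rose and 1 fell, which is 7.41% against the 14.1% of all named genes. *TRAF3IP2*, the adaptor through which interleukin-17 receptors signal to NF-kappaB, had 5.88, 5.78 and 5.84 on the Empty vector arrays and 6.24, 6.31 and 6.18 on the USF1 arrays. It rose by 0.41 (SE 0.08, limma adjusted p-value = 0.0216), and its groups did not overlap. *CARD8*, which encodes a protein with a caspase recruitment domain that has been described as a restraint on NF-kappaB, had 4.95, 4.82 and 4.93 on the Empty vector arrays and 4.43, 4.42 and 4.24 on the USF1 arrays. It fell by 0.54 (SE 0.09, limma adjusted p-value = 0.0121), and its dimmer probeset had -0.45 (SE 0.15, limma adjusted p-value = 0.0859). *CARD8* lost its call without USF1 replicate 3, and *TRAF3IP2* without either of USF1 replicates 1 and 3 or of Empty vector replicates 2 and 3. The adaptor *MYD88*, through which Toll-like and interleukin-1 receptors signal, had 0.18 (SE 0.08, limma adjusted p-value = 0.164).

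Of the ubiquitin system of the pathway, 24 of 30 genes were measured, 2 rose and 3 fell, which is 20.8% against the 14.1% of all named genes. At an unadjusted p-value under 0.05 there were 10, where 34.5% of all named genes had one. The groups did not overlap for 45.8% of the genes against 40.2% of all named genes. The difference of the list from all genes was not tested. *SKP1*, the adaptor of the ubiquitin ligase that marks phosphorylated IkappaB, had 9.96, 9.96 and 9.95 on the Empty vector arrays and 10.34, 10.27 and 10.35 on the USF1 arrays, a rise of 0.36 (SE 0.08) at 1 of its 4 probesets, with 0.24, 0.11 and 0.10 at the others. *COMMD1*, a protein known to promote the removal of RELA from chromatin, rose by 0.38 (SE 0.10). The deubiquitinases *USP21* and *OTUD7B*, both described as restraints on the signal, fell by 0.48 (SE 0.10) and by 0.46 (SE 0.11). All 3 probesets of *USP21* were called, between -0.49 and -0.46, and 1 of the 2 of *OTUD7B*. *N4BP1*, a partner of the ubiquitin ligase NEDD4, fell by 0.43 (SE 0.11) and was called at 2 of its 4 probesets. These 5 genes had adjusted p-values between 0.0225 and 0.0436 from limma, and each call was lost without Empty vector replicate 2, without Empty vector replicate 3 and without USF1 replicate 3. Over all probesets these fits called 574, 1110 and 369, against 1974 with all arrays. The deubiquitinase *CYLD*, a negative regulator of the pathway, had -0.37 (SE 0.11, limma adjusted p-value = 0.0579) at its brightest probeset and passed at 1 of its 3 probesets (-0.48, limma adjusted p-value = 0.0436).

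Of 20 nuclear cofactors and modifiers, 18 were measured and 1 fell, which is 5.56% against the 14.1% of all named genes. *PIAS3*, a SUMO ligase known to bind RELA, had 5.66, 5.59 and 5.35 on the Empty vector arrays and 5.07, 5.13 and 4.96 on the USF1 arrays, a fall of 0.48 on the log2 scale (SE 0.11, limma adjusted p-value = 0.0252). This call was lost without USF1 replicate 1, without USF1 replicate 3 and without Empty vector replicate 2. The median of the list was -0.059.

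Of 48 genes known as NF-kappaB targets, 17 were measured, and none passed limma at its brightest probeset, where 14.1% of all named genes did. At an unadjusted p-value under 0.05 there were 7, 3 higher and 4 lower, where 34.5% of all named genes had one. By the methods' t-test 0 passed after Benjamini-Hochberg adjustment. The other 31, among them *CXCL8*, *IL6*, *TNF* and *ICAM1*, are not analysed here. *TNFAIP3*, which encodes the deubiquitinase A20 and is among the targets known best, had 5.29, 5.45 and 5.29 on the Empty vector arrays and 5.19, 5.53 and 5.30 on the USF1 arrays. Its difference was -0.00067 (SE 0.11, 95% interval -0.25 to 0.25). *GADD45B*, a stress gene known to be induced by NF-kappaB, had 7.11, 7.15 and 6.88 on the Empty vector arrays and 7.36, 7.93 and 7.38 on the USF1 arrays, a difference of 0.51 (SE 0.16, limma adjusted p-value = 0.0708). It passed at its 2 dimmer probesets, with 0.46 (SE 0.12, adjusted p-value = 0.0449) and 0.57 (SE 0.13, adjusted p-value = 0.0309, both from limma). The target genes ranged from -0.37 to 0.51, and their median was -0.11.

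**Figure D4:**
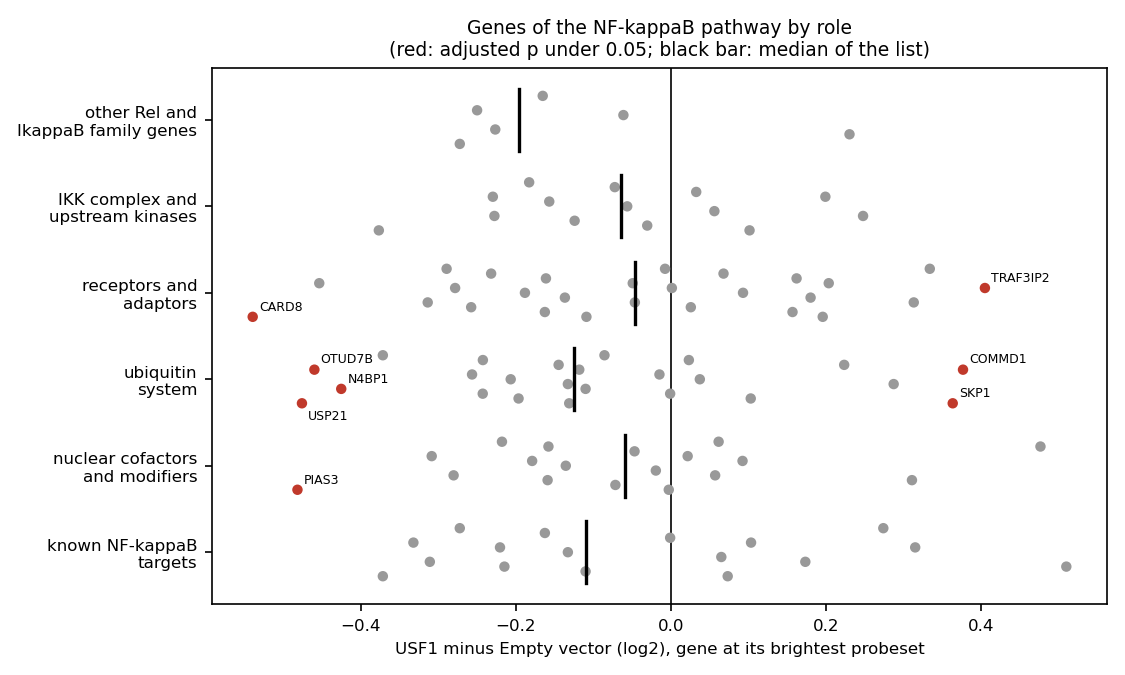
Difference, USF1 minus Empty vector in log2 units (horizontal axis), of the measured genes of 6 lists of the NF-kappaB pathway (vertical axis), 1 point per gene at its brightest probeset, in red and named where the limma adjusted p-value was under 0.05, with the median of each list as a black bar. There are 8 red points, 3 right of 0 and 5 left of it, and 5 of them are in the ubiquitin system.

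With the actin value as a covariate, none of the 8 pathway genes called above passed limma, with adjusted p-values between 0.0731 and 0.189. Over all probesets 395 passed in this fit, against 1974 without the covariate. The actin value partly follows the group, so this fit cannot fully separate them, and the part of RNA quality in these calls was not tested.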

How the data were processed

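The authors deposited RMA expression values on the log2 scale for 6 Affymetrix U133 Plus 2.0 arrays. They imported the arrays with justRMA (R 2.8.0 per the labels), which subtracts background and quantile normalizes, masked probes that were mis-targeted or nonspecific, dropped probesets with few probes left or with absent calls on most arrays, and adjusted for batch with ComBat. Which arrays formed a batch is not stated in the sources used here, and the fits below hold no term for it. Arrays were grouped by title. It is not stated whether each array had a transfection of its own, so p-values measure the spread between these arrays only, and that spread may be technical. Their number limits the precision.

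Differences on the log2 scale were fitted with limma 3.58.1 (lmFit, eBayes) in R 4.3.3, without covariates, over all 16569 probesets, with Benjamini-Hochberg adjustment and a threshold of 0.05. The prior had 4.53 degrees of freedom. The methods name a t-test, which was run with both variance assumptions as an alternative, with Benjamini-Hochberg adjustment. The fractional degrees of freedom that the paper lists go with unequal variances. Its gene list took unadjusted p-values up to 0.05, so the adjusted t-test counts given here are not those of the paper. Gene names came from the platform annotation (15093 probesets with 1 gene, 570 with several, 873 and 33 controls with none) and stood unchanged against RefSeq's GRCh38.p14 table. The members and gene lists were chosen with earlier results of these data known. Named genes are all NF-kappaB probesets, *USF1*, up to 4 called genes per list with the smallest adjusted p-values, genes that complete a count, and the 3 genes most like a called member. *REL*, *NKIRAS1*, *NKIRAS2*, *CHUK*, *IKBKB*, *IKBKG*, *TAB2*, *TAB3*, *MYD88*, *CYLD*, *TNFAIP3* and *GADD45B* were named after their values were seen. No set test was run. The procedure was tested on simulated data. Protein sequences were not used here.

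Same-numbered arrays had correlations of their deviations from the group means of 0.0958, 0.246 and 0.129. Arrays of different number had lower ones, from -0.171 to 0.0246. No source used here says that the numbers pair the arrays, so the main fit holds no pairing and a replicate block was run as an alternative. The alternatives were the t-tests, other priors, array weights, 2 further normalizations, a filter on dim probesets, a linear scale, a replicate block, other choices of the probeset, leaving out control probesets and leaving out each array. The fits without both Empty vector arrays of low actin value and with the actin value as a covariate were chosen after seeing the data.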

Additional observations from a re-analysis of the deposited data

How the results depend on the processing

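The number of NF-kappaB probesets called higher was 1 with all arrays and 0 to 1 without single arrays (0 without USF1 replicate 1, USF1 replicate 3 or Empty vector replicate 2). It was 0 with the methods' t-test of unequal variances, on the linear scale, with the actin value as a covariate, without both Empty vector arrays of low actin value and without the 25% of probesets of lowest mean, where *RELB* is left out. The number called lower was 0 (0 without each single array), and 1, *NFKB1*, with array weights, on the linear scale, with the replicate block and without the probesets of lowest mean. None of the 8 differences changed sign under any alternative run.

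Over all probesets 715 were higher and 1259 lower. Without single arrays the counts ranged from 219 (without USF1 replicate 1) to 877 (without Empty vector replicate 1) higher and from 147 (without USF1 replicate 3) to 1569 (without USF1 replicate 2) lower. They were 1277 and 2411 with array weights, 462 and 651 on the linear scale, 84 and 76 with the methods' t-test of equal variances, 0 and 1 with that of unequal variances, 290 and 105 with the actin covariate, and 217 and 60 without both Empty vector arrays of low actin value. Under the replicate block 1967 were lower, and every array deviated most like the array of its own number, which is a hint from the data and not from the design. With arrays centred on their medians 815 were lower.

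Of the pathway lists, the ubiquitin system had 5 calls, 0 to 6 without single arrays, 8 with array weights, 2 on the linear scale, 1 with the t-test of equal variances and 0 with that of unequal variances, with the actin covariate or without both low arrays. Receptors and adaptors had 2 calls, 0 to 3 without single arrays, 4 with array weights, 1 on the linear scale and without the probesets of lowest mean, and 0 with both t-tests, the actin covariate or without both low arrays. Nuclear cofactors had 1 call, 0 to 1 without single arrays and 0 with both t-tests, the actin covariate or without both low arrays. Targets had 0 calls, 0 to 2 without single arrays, 2 with array weights, the replicate block or the probeset of smallest p-value, and 1 with a trended prior or without the probesets of lowest mean. The IKK list had 0 calls, 0 to 1 without single arrays, and 1 with array weights, on the linear scale or with the replicate block. The other Rel and IkappaB genes had 0 calls, 0 without each single array and 1 on the linear scale. The causes were not tested.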
